A study of Homo sapiens with 6 samples.

Results

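HELLS is the gene of a chromatin remodeller on the plus strand of chromosome 10, and its transcript carried 157 of the 34781 USP39 binding sites in the merged list. The sites were taken as every plus-strand site whose central base lay between 94545788 and 94613905 (GRCh38), the span of HELLS in the RefSeq gene table. HELLS was chosen by its number of sites in this list, so its count and rank are given as a description. The sites came from iCLIP2, which maps where UV light joined a protein to RNA, in wild-type HEK293T cells, a common laboratory line derived from human embryonic kidney. USP39 was precipitated with an anti-USP39 antibody from cells irradiated at 254 nm, and RNA was taken from a high and a low membrane region, with 3 libraries each. All 6 libraries share the genotype, the antibody and the irradiation, and a control that was not irradiated was not analysed here. The list is filed under the low region, replicate 1. It holds positions only, so the depth behind a site is unknown, no value has a replicate error, and the membrane regions could not be compared.

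USP39 belongs to the tri-snRNP, which carries the U4, U6 and U5 snRNAs and brings them to an intron before splicing starts. HELLS, also called LSH, is an ATPase of the SNF2 family that moves nucleosomes, with CDCA7 as its activator. It is needed for normal DNA methylation in heterochromatin, and mutations in HELLS, CDCA7, ZBTB24 or DNMT3B cause the immunodeficiency, centromeric instability and facial anomalies (ICF) syndrome. A site in the transcript of such a gene is read here as a contact of USP39 with that RNA and says nothing of the encoded protein.

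The sequence of HELLS could be read at 1 of the 157 sites, the first, which lay within the RefSeq window around the gene start. The window is shown because it holds the 5' boundary of the bound RNA. It covers chr10:94545538-94545837 on the plus strand (GRCh38.p14), with 250 bases before the annotated start and the first 50 bases of the gene. The bases of the site are in capitals.
HELLS: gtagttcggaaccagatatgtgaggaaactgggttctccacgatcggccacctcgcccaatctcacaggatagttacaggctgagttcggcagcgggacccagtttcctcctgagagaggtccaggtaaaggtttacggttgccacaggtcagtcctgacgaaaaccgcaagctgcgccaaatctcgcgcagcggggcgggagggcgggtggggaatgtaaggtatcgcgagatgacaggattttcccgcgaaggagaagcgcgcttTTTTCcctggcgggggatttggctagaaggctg

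The site covered positions 94545805 to 94545809 and was centred on base 20 of the gene. It lay at the end of the run TTTTTT, which spans bases 16 to 21. On the given strand, TTTTTT was in the first 50 bases of 0.555% of 15843 protein-coding genes with such a window. Over all 300 bases it was on either strand in 14.1% of them, and in HELLS once on the given strand and 0 times on the other. The 5 bases under the site, TTTTC, were more common, in the first 50 bases of 4.51% of these genes on the given strand. Both motifs were read from the HELLS window itself. A site in the first 50 bases was itself uncommon: 360 of the 15843 genes had one, or 2.27%.

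Of 9 genes near HELLS in number of sites or in profile, all named below, 8 had such a window. A site lay in the first 50 bases of 4 of them, and IRS4, PRRC2B, SRRM2 and HEATR1 had none there. The 4 with a site are shown to compare the bases under the sites, 30 bases each on the strand of the gene, with the sites in capitals. EEF2 had 2 sites in its first 50 bases, of which 1 lies in the 30 bases shown. The window is chr22:38506282-38506311 (minus) for DDX17, an RNA helicase gene, and chr14:21269411-21269440 (minus) for HNRNPC, which binds uridine tracts. For EEF2, a translation elongation factor gene, it is chr19:3985434-3985463 (minus), and for CSE1L, an exportin gene, chr20:49046319-49046348 (plus).
DDX17: gcCATTTtgtgcagtcgctgggaaggaagg
HNRNPC: aggagactcgggGGCCAtTTTGTgaagaga
EEF2: cTCTTCcgccgtcgtcgccgccatcctcgg
CSE1L: cattttgccgggGTTTGaatgtgaggcgga

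Across the 460 sites that lay wholly in the first 50 bases of a protein-coding gene, the central base was T in 347, or 75.4% (exact 95% binomial interval 71.2% to 79.3%). T made up 25.6% of the bases at which such a site could be centred in the same windows. The HELLS site, with T at its centre and 4 T in 5 bases, belonged to the 22.2% of these sites with at least 4 T. Of all 5-base stretches in those windows, 3.74% had that many. Whether this share of T is particular to USP39 was not tested, since sites of no other protein were compared. Binomial intervals here and below cover counting error only, and neighbouring sites of a gene are not independent.

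By number of sites HELLS was number 3 of 20037 protein-coding genes, after IRS4 with 180 and DDX17 with 163 and before PRKDC with 150 and HNRNPC with 108. IRS4 encodes a signalling adaptor and PRKDC a kinase of DNA double-strand break repair. The order by density differed, because the span of HELLS is 68118 nt. HELLS had 2.30 sites per kb, which is 1 site per 434 nt. IRS4 and DDX17 had 10.8 and 7.13 sites per kb, HNRNPC had 1.79 and PRKDC had 0.802. Among the 178 protein-coding genes with 30 or more sites, HELLS was number 71 by density and number 30 by length. The other 177 had a median density of 1.66 sites per kb and a range of 0.146 to 11.9.

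Against genes of its own size, HELLS stood first, which follows from its choice by number of sites, since IRS4 and DDX17 are shorter. There were 1868 protein-coding genes of similar length, from 54504 to 85142 nt, and 442 of them had a site. The median of the others with a site was 3 sites. The next were HNRNPC with 108 sites, XPO1 (a nuclear exportin) with 70 and MATR3 (a nuclear matrix protein that binds RNA) with 60. No RNA level was measured, so these counts are not corrected for how much HELLS transcript the cells hold.

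**Figure D1:**
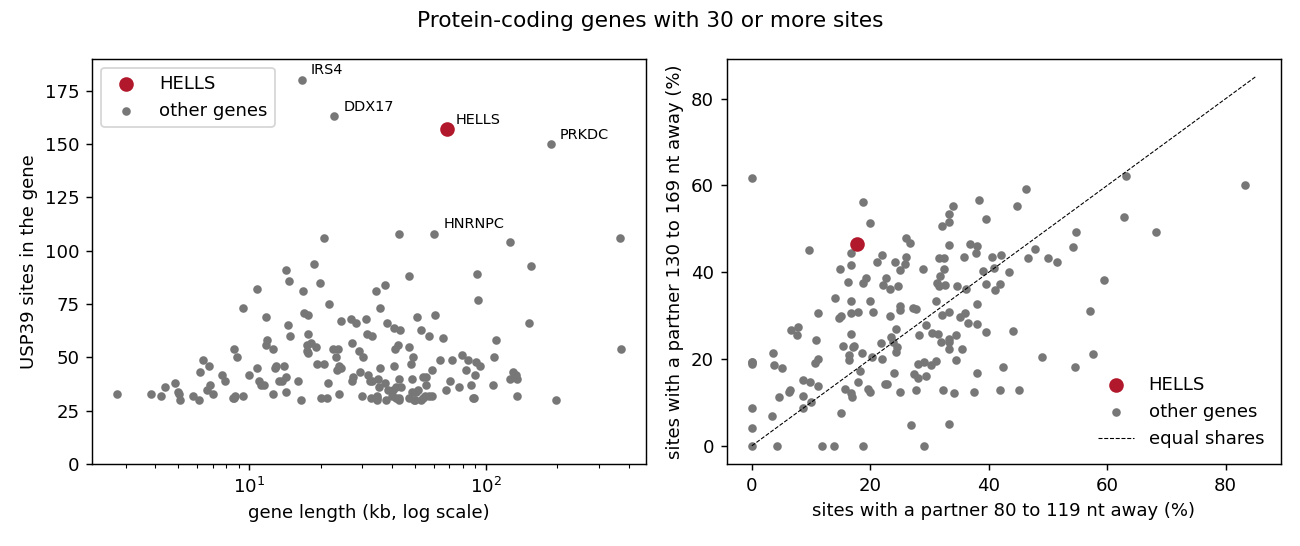
Protein-coding genes with 30 or more sites, 1 point a gene, HELLS in red and the other 177 in grey. Left, number of sites against gene length (kb, log scale): HELLS has 157 sites in 68.1 kb. Right, share of a gene's sites with a partner 130 to 169 nt away against the share with a partner 80 to 119 nt away: HELLS lies above the line of equal shares, at 46.5% against 17.8%.

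The flanks of HELLS were empty of sites. Within the gene, all 157 lay on the plus strand, the strand of HELLS, and the minus strand had 0 in the span. Over 1484 protein-coding genes that overlap no other gene and had a site, 99.1% of 10136 sites lay on the strand of the gene. The last HELLS site lay 525 nt before the annotated end. TBC1D12, the upstream neighbour 9455 nt away, had 0 sites, as did the pseudogene CTBP2P2 and CYP2C18, a cytochrome P450 gene, on the downstream side. NOC3L, the second gene upstream, had 1 site, on the minus strand. The nearest site of either strand lay 211699 nt before HELLS, at 94334087 to 94334091, and 624111 nt after it, at 95238014 to 95238018. The nearest plus-strand sites were 1891905 nt upstream and 1498874 nt downstream.

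Along the gene the sites lay in long stretches with thinly filled RNA between them. Stretches were parted at gaps over 2000 nt, a limit chosen after seeing the positions, which gave 3 with at least 10 sites. The number depends on that limit: it was 4 with gaps over 1000 nt and 2 with gaps over 3000 nt. The 3 stretches with at least 10 sites held 147 sites, or 93.6%, in 51.6% of the length, at 4.18 sites per kb. The other 48.4% of the length held 10 sites, at 0.304 per kb. Because the limit was set on the same positions, this contrast is a description of them.

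The first part of HELLS was nearly empty. Its 2 sites at the start, centred on bases 20 and 64, were followed by 8366 nt with none, the longest gap of the gene. A lone site at 94554215 to 94554219 and a pair at 94558178 to 94558190 came next. The upstream stretch began after a further 4512 nt.

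The upstream stretch ran from 94562698 to 94571395 and held 29 sites in 8698 nt, or 3.33 per kb. Its sites were crowded at its beginning, with 8 between 17 and 18 kb from the gene start. The middle stretch ran from 94573631 to 94588341 and held 45 sites in 14711 nt, or 3.06 per kb. Here the crowding was toward the downstream side, with 5, 8 and 5 sites in the 3 windows from 39 to 42 kb.

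Between the middle and downstream stretches only 5 sites were found. A pair of sites lay 1536 nt apart, from 94590733 to 94592273, then a single one at 94594761 to 94594765 and a pair from 94596979 to 94597067. The gap before the downstream stretch was 4552 nt.

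The downstream stretch was the densest. It ran from 94601615 to 94613382 and held 73 sites, 46.5% of all, in 17.3% of the length, at 6.20 per kb. From 57 to 62 kb the windows of 1000 nt held 6, 12, 7, 10 and 11 sites, and the window from 64 to 65 kb held 7. No window outside this stretch held more than 8. The densest 1000 nt at any position started at 94603836 and held the central bases of 13 sites, 8.28% of the gene's sites (exact interval 4.48% to 13.7%).

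Windows with no site made up 23 of 68, or 33.8%, and 7 of them lay in a row near the start. In the other genes with 30 or more sites, the median share of empty windows was 50.9%. The 10 windows with at least 5 sites held 79 sites, 50.3% of all. Both measures depend on the length of a gene and its number of sites, so they were also set against the 18 other genes of similar length with 30 or more sites. Those genes all had fewer sites than HELLS, and fewer sites leave more windows empty, so number of sites was not matched. The share of empty windows was higher in all 18, from 40% up to 88.1%. The densest 1000 nt held a larger share than in HELLS in 17 of the 18, with a median of 16.3%. This share also depends on the number of sites, which was not matched.

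**Figure D2:**
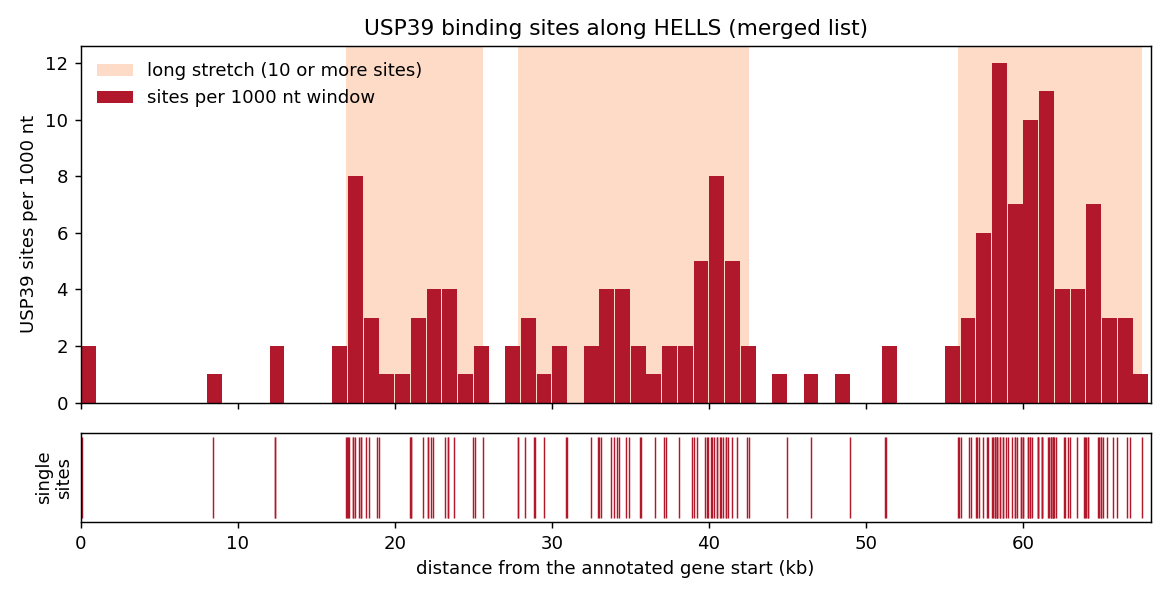
USP39 sites along HELLS. Top, sites per window of 1000 nt against distance from the annotated start (kb), with the 3 long stretches shaded; bottom, 1 line for each of the 157 sites. The downstream stretch holds the 3 windows with 10 or more sites, and 7 windows in a row near the start hold none.

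In 10 bins of equal length, the sites were most numerous in bin 9, not in the last one. From the 5' to the 3' end the bins held 2, 3, 14, 15, 14, 23, 10, 3, 43 and 30 sites. Bin 9 had 27.4% of the sites (exact interval 20.6% to 35.1%), and 15 of the 177 other genes had a larger share there, with a median of 9.80%. Bin 10 had 19.1% (13.3% to 26.1%), close to the median of 17.4% in the other genes, of which 78 had more. Bin 8, with 1.91% (0.396% to 5.48%), lay below the median of 8.16%, and 147 other genes had more. In bin 1 the share was 1.27% (0.155% to 4.53%) against a median of 6.25%.

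Within the last 5000 nt of the span lay 17 sites, against 2 in the first 5000 nt. The 3' side of HELLS was thus densest some way before the annotated end. RefSeq lists 11 transcripts of HELLS under this 1 span, 10 of them with an NM accession. Where each of them ends, and where the exons and introns lie, was not used here. The sites of the downstream stretch could therefore not be split between introns and 3' untranslated regions, and the spread over single introns is not given.

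**Figure D3:**
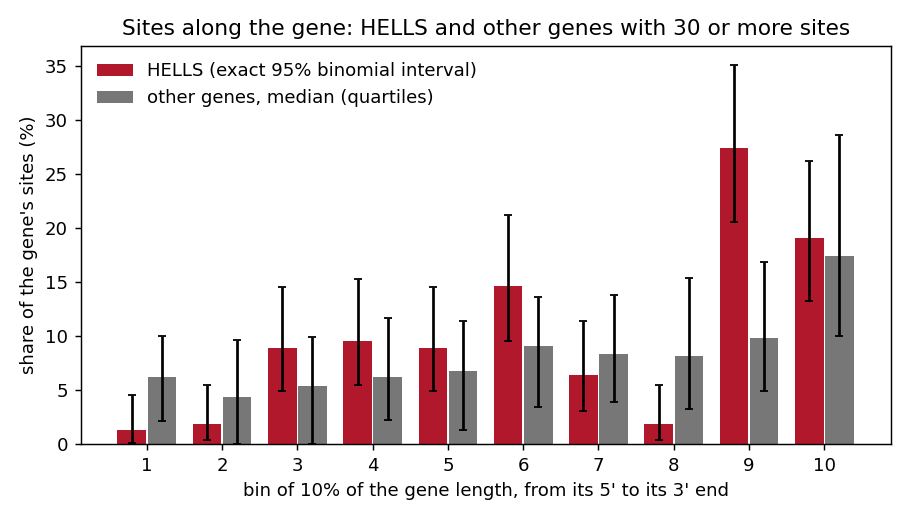
Share of a gene's sites (%) in each of 10 bins of equal length, from the 5' to the 3' end. Red bars are HELLS with exact 95% binomial intervals, grey bars the median of the 177 other genes with 30 or more sites with their quartiles. HELLS is above the upper quartile in bins 6 and 9, at 14.6% and 27.4%, and below the lower quartile in bins 1 and 8.

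The genes whose shares per bin were most like those of HELLS were EEF2, CSE1L, PRRC2B, SRRM2 and HEATR1. Likeness was the total variation distance, the share of sites that would have to move to another bin for the profiles to match. It was 16.2% for EEF2, 18.8% for CSE1L, 19.4% for PRRC2B (a gene of an RNA-associated coiled-coil protein), 21.1% for SRRM2 (a nuclear speckle protein) and 21.3% for HEATR1 (a ribosome biogenesis factor). Over all 177 genes the median distance was 39.9%. The list depends on the number of bins: 2 of these genes, PRRC2B and CSE1L, stayed among the nearest 5 with 5 bins, and 3, those and SRRM2, with 20 bins. EEF2, the nearest, and HEATR1 were lost in both. These profiles rest on 34 to 104 sites a gene and 1 merged list. The likeness was in overall shape, with most sites toward the 3' end, since in bin 9 the 5 genes had from 15.1% to 23.1% against 27.4% in HELLS. EEF2 is 9408 nt long, so its bins are far shorter than those of HELLS.

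Sites of HELLS often came as close pairs. The 156 gaps between neighbouring sites had a median of 155.5 nt, from 5 to 8366 nt, and 26 of them (16.7%) were 5 to 9 nt. Only 7 of the 177 other genes had a larger share of such short gaps, and their median was 7.50%. In HELLS 50 sites (31.8%) had a neighbour 5 to 9 nt away. Because each site is 5 nt wide, such a pair leaves at most 4 nt between its sites. Among the genes with the most sites DDX17 had 15.4% of its gaps in this range, HNRNPC 12.1%, IRS4 9.50% and PRKDC 4.70%.

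With sites up to 50 nt apart joined, HELLS had 117 groups: 82 single sites, 31 pairs, 3 groups of 3 and 1 group of 4. After joining it had the most of the 178 genes, with 111 in PRKDC and 110 in IRS4. All 4 groups of 3 or more lay in the downstream stretch. The group of 4 covered 94607691 to 94607740, and the groups of 3 covered 94604128 to 94604143, 94606724 to 94606751 and 94606995 to 94607010. In the downstream stretch 45 of 73 sites (61.6%) had a neighbour within 50 nt, against 12 of 29 in the upstream and 14 of 45 in the middle stretch. Over the whole gene the share was 47.8% (exact interval 39.7% to 55.9%), near the median of 45.2% in the other genes.

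A second spacing stood out at 130 to 169 nt. The band and its comparison bands were chosen after seeing the distances, so the following values carry no test. Of all pairs of HELLS sites, not only neighbours, 64 were 130 to 169 nt apart, 16 were 80 to 119 nt apart and 20 were 180 to 219 nt apart. The band thus held 64.0% of the 100 pairs in the 3 bands of equal width, where equal numbers would give 33.3%. The class of 160 to 169 nt alone held 23 pairs, the most of any class of 10 nt up to 399 nt apart from that of the close pairs. In the 177 other genes together the bands held 1838, 1646 and 1525 pairs, so the same share was 36.7%. Their class of 160 to 169 nt held 485 pairs, the most of any class from 30 to 399 nt. The same spacing was thus slightly raised in the other genes together.

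Close pairs count several times in such numbers. With sites up to 50 nt apart joined, the share in HELLS was 52.9% of 51 pairs, a value lower than that of single sites. The downstream stretch gave 44 of the 64 pairs, the upstream stretch 11 and the middle stretch 9. Without the downstream stretch the share was 54.1%, without the middle stretch 69.6% and without the upstream stretch 62.4%. The bands on either side held 8 and 11 pairs in the downstream stretch and 3 and 1 in the upstream stretch. In the middle stretch they held 4 and 8, so there the band stood out least.

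Counted by site, 73 HELLS sites (46.5%, exact interval 38.5% to 54.6%) had a partner 130 to 169 nt away. A partner at 80 to 119 nt was found for 28 (17.8%) and at 180 to 219 nt for 32 (20.4%). The medians of the other genes were 27.5%, 26.1% and 22.6%. A higher share with a partner in the band was found in 18 of the 177, among them DDX17 with 55.2% and IRS4 with 52.8%. In DDX17 44.8% of sites had a partner at 80 to 119 nt and 51.5% at 180 to 219 nt, and in IRS4 62.8% and 64.4%. Others of the 18 were MRPL34, NOP56 and ARIH2, with 61.8%, 56.25% and 51.4% in the band on 34, 32 and 35 sites. Their shares were 0%, 18.75% and 20% at 80 to 119 nt, and 0%, 28.1% and 25.7% at 180 to 219 nt. A band above both its flanks was thus not particular to HELLS. In runs of HELLS sites, each 130 to 169 nt from the last, the longest had 4 sites. One lay between 94603834 and 94604294, with steps of 161, 133 and 162 nt. The other lay between 94607417 and 94607906, with steps of 150, 169 and 166 nt.

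Of the 24 genes with at least 20 pairs in the band, HELLS had the highest share, 64.0%, before SNRNP70 (a U1 snRNP protein) with 57.1%, HNRNPC with 52.6% and MTA1 (a subunit of a histone deacetylase complex) with 51.1%. DDX17 and IRS4, with as many pairs in the band, 67 and 69, had shares of 35.1% and 29.5%, near the 33.3% that equal numbers give. Of all 177 other genes 12 had a higher share than HELLS, each on fewer than 20 pairs in the band. The limit of 20 pairs, which left those genes out, is set on the count that enters the share. The band was chosen with the HELLS distances in view, so the rank of HELLS is not independent of that choice. Shares with close sites joined were computed for HELLS only. The sequence under the HELLS sites in the band was not analysed here.

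**Figure D4:**
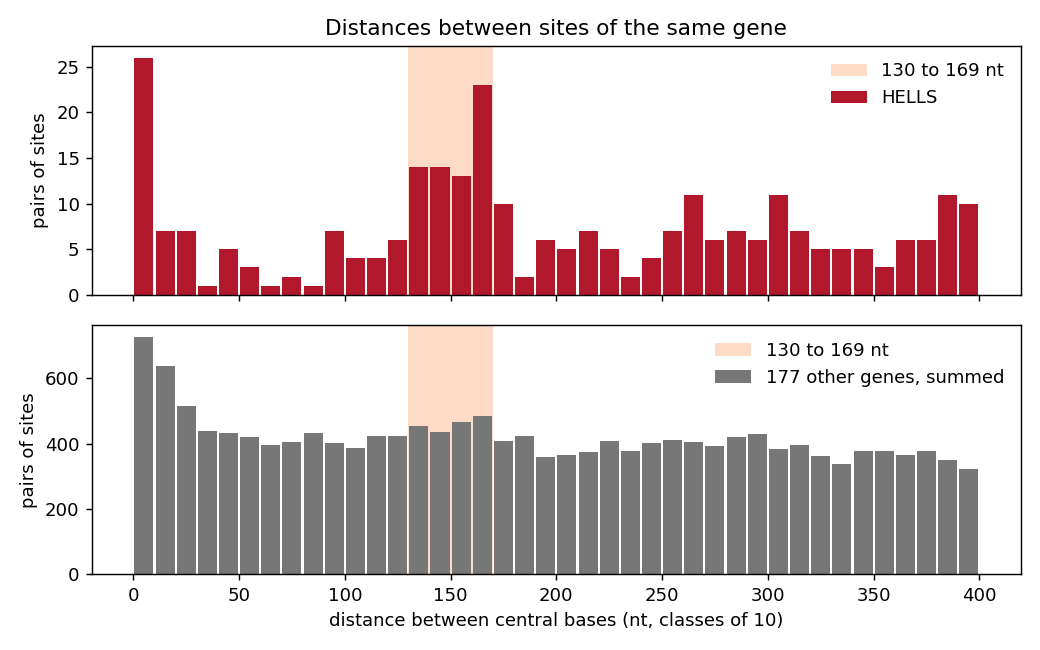
Number of pairs of sites at each distance between central bases, in classes of 10 nt up to 399 nt, in HELLS (top) and summed over the 177 other genes with 30 or more sites (bottom). The shaded band is 130 to 169 nt: HELLS has 64 pairs there and few from 30 to 89 nt. The other genes together have between 323 and 485 pairs in each class from 30 nt on, with the most at 160 to 169 nt.

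HELLS had more sites than any other listed gene of its protein family. It was chosen by its number of sites, and IRS4 and DDX17, the only genes above it, are not on the list. This first place therefore follows from the choice of gene. Of 31 other SNF2-family ATPase genes, 19 (61.3%) had a site, against 21.4% of all protein-coding genes, and 15 had at least 3 sites, against 11.9%. Their median was 2 sites. Genes were not matched for length or RNA level in this comparison, and the lists were drawn up with earlier results of these data known. SRCAP, the ATPase that loads the histone variant H2A.Z, had 56 sites and CHD4, the ATPase of the NuRD complex, had 38. No other member had more than 8, the number in SMARCA4 and RAD54L. SMARCA5, which encodes an ISWI ATPase, ATRX and BTAF1 had 6 each. SMARCA1, SMARCA2, INO80 and CHD9 were among the 12 with 0 sites. HELLS had 2.30 sites per kb, SRCAP 1.33 and CHD4 1.02, and the highest density in the rest of the list was 0.260, in RAD54L.

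Genes of DNA methylation were the other list. Of 17 such genes, 8 (47.1%) had a site, against 21.4% of all protein-coding genes, and 6 (35.3%) had at least 3, against 11.9%. None had as many sites as HELLS, which here too follows from the choice of HELLS by its number of sites. In this comparison too, genes were not matched for length or RNA level. CDCA7, the activator of HELLS, had 11 sites in 14126 nt. DNMT1, the maintenance DNA methyltransferase, had 29 and UHRF1, which recruits it, had 6. MBD3, a NuRD subunit of the methyl-CpG-binding family, had 47 sites and a density of 2.44 per kb, beside 2.30 in HELLS. ZBTB24 and DNMT3B, the other genes of the ICF syndrome named above, had 0 sites, while USP7, a deubiquitinase that binds DNMT1 and UHRF1, had 8.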

How the data were processed

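USP39 iCLIP2 sites from HEK293T cells were analysed as 1 BED list that the authors deposited. The build was GRCh38.p12, per the submitters' processing notes. Those notes name STAR 2.7.3a and UMI-tools 1.1.2, which align reads and count molecules, besides bedtools 2.29.2, FastQC 0.11.9 and SAMtools 1.10. Not given in the sources used here are the caller of the sites, its filters and which libraries were merged. The score the authors deposited is 0 for every site, so depth and height are unknown.

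Genes, spans and strands came from RefSeq tables (GRCh38.p14). For genes without a strand there, the strand with most sites was used. Sites in small RNA genes were left out of the gene counts, read-through and LOC genes gave way to others, and sites in several remaining genes were not counted. Positions count the first base as 1.

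HELLS and the lists were chosen with earlier results of these data known. Named genes follow a rule of nearness to HELLS in number of sites, length, profile or position, and of at least 10 sites in the lists. SNRNP70, MTA1, MRPL34, NOP56, ARIH2 and list genes with fewer sites were named after their values were seen. No test between groups was possible. Positions relative to exons and splice sites were not used here, since no annotation of exons was at hand. Procedures were tested on simulated data. Values were computed with pandas 2.3.3, numpy 2.4.6 and scipy 1.17.1 in Python 3.11.15 and drawn with matplotlib 3.10.9.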

Additional observations from a re-analysis of the deposited data

How the results depend on the processing

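No paired analysis was possible because the single list is merged and no value belongs to a library. Of 42 alternatives to 13 results, 26 left a share within its counting interval, or a count or density within 1.5 times. Most of the others follow from their own construction. The share in the last part of HELLS was 7.01% for the last 5% and 46.5% for the last 20%. The share with a neighbour was 35.7% within 20 nt, 61.1% within 100 nt and 85.4% within 200 nt. Clusters of 3 or more sites numbered 8 when joined within 100 nt and 21 within 200 nt, with 35 clusters of 2 or more and 1 of 4 or more. Empty windows made up 48.5% at 500 nt and 17.6% at 2000 nt. Of the 5 genes most like HELLS, 2 remained among the nearest 5 with 5 bins and 3 with 20 bins, both without EEF2; the cause was not tested. With at least 50 sites required 3 remained, since CSE1L and HEATR1 have fewer. The share of pairs 130 to 169 nt apart, added after seeing the data, was 52.9% with sites joined within 50 nt and 50% within 20 nt, since a joined pair then counts once. Depth is unknown and limits every count, since a part of the gene with no site may hold contacts that this list does not contain.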
